A study of Drosophila melanogaster with 2 samples.

Results

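The 7 genes of the Drosophila dosage compensation complex were examined in a ChIP-seq data set of Ssrp, chosen by name as the protein subunits of the male-specific lethal (MSL) complex and its noncoding RNAs, out of 18277 annotated genes. The proteins are encoded by msl-1 and msl-2 on 2L, msl-3 on 3L, mle on 2R and mof on X, and the RNAs by lncRNA:roX1 and lncRNA:roX2 on X. Ssrp is a subunit of the histone chaperone FACT and was tagged with enhanced GFP at its C-terminal end in a transgenic fly line, then precipitated through the tag. Whole embryos 0 to 16 h old, males and females pooled, were collected for 2 biological replicates, which form the only group. No untagged or input library was analysed here, and what drives the transgene is not given in the sources used here. A summit was assigned to a gene when it lay in the gene or within 2 kb of it.

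In male flies the MSL complex binds along the single X chromosome and raises its transcription. MSL1 and MSL2 form the scaffold, MSL3 is a chromodomain protein that recognises methylated histone H3, MLE is an RNA helicase that remodels the roX RNAs, and MOF acetylates lysine 16 of histone H4. The roX RNAs are built into the complex, and their own genes hold sites at which it first loads, marked by GA-rich MSL recognition elements. In females Sxl blocks msl-2 translation, so that the complex does not form. Male and female chromatin were mixed in these embryos and cannot be told apart.

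Sequences are shown for the strongest pooled summit of each of the 3 X-linked genes of the complex. Those of the autosomal genes were not printed, among them mle, whose summit was stronger than those of mof and roX1. The printed sequences come from the RefSeq release 6 assembly and run 5′ to 3′ on the plus strand. Every match to GAGAG or GAGAGAGA, on either strand, is in capitals. The roX2 stretch is chrX:11580203-11580502, in which base 219 is the pooled summit. The roX1 stretch, 299 bases centred on the summit, is chrX:3862362-3862660, and roX1 is transcribed from the minus strand. The mof stretch, 248 bases, is chrX:5873358-5873605, between the 5′ end of GAA1 and the 3′ end of mof, with the summit at base 99.
roX2: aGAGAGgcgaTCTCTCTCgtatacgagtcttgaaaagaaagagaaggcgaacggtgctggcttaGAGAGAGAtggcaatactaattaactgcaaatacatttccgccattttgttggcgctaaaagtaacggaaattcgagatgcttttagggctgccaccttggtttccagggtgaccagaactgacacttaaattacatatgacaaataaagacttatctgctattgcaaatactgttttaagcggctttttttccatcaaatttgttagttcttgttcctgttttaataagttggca
roX1: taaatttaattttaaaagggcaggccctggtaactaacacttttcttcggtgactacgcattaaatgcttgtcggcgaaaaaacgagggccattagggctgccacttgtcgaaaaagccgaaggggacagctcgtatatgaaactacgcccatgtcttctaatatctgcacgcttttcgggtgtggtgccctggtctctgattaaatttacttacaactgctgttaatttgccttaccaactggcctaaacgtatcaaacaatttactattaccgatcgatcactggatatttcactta
mof: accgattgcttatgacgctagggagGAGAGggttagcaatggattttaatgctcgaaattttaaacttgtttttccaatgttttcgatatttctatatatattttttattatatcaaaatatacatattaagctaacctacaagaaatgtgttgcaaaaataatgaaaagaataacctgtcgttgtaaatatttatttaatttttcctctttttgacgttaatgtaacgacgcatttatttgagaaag

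The authors deposited a peak list for each replicate, a pooled list of both, and a thresholded list from the irreproducible discovery rate (IDR) procedure. This procedure compares the ranks of peaks between replicates. The first 3 lists hold 30000 peaks each, and the IDR list holds the 5445 strongest pooled peaks. Of these, 77.4% had a matching peak in both replicate lists, so a single IDR peak need not rank alike in both. Signals are the authors' values and differ in scale between lists, so they are given with their rank within a list, where rank 1 is the strongest. The median signal was 72.3 in the pooled list (46.9 to 5979), 47.8 in replicate 1 (32.1 to 2646) and 33.1 in replicate 2 (20.7 to 3364). The lowest signal in the IDR list was 157. Sequencing depth is unknown, since the lists hold no read counts.

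Of the 7 genes, mle and roX2 had an IDR summit in their window, with 1 each, and the other 5 had none. Among all genes 32.6% had an IDR summit in the same window, so 2 of 7 is close to the background. None of the 7 had an IDR summit within 500 bp of any of its own transcription start sites (TSSs), against 16.3% of all genes. At roX2 the summit lay in the last bases of the gene, and at mle it lay past the 3′ end.

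Pooled summits were found at all 7 genes, 17 in all, against 65.1% of all genes with at least 1. Many were weak by the deposited −log10 q-value, which is higher for a more significant peak. For the strongest summit of each gene it was 3.85 at mle and roX2, 1.43 at mof and 1.4 at roX1. It was 0.864 at msl-1, 0.576 at msl-2 and 0.369 at msl-3, and the weaker summits had 1.18 down to 0.356. A pooled summit is thus not by itself a significant peak. For 3 of the 7 (msl-2, mle and roX1) a pooled summit lay within 500 bp of an own TSS, against 40.0% of all genes. Replicate 1 had 21 summits at the 7 genes and replicate 2 had 19 summits at 6 of them, a mean of 20 ± 1.41 (SD, n = 2). The backgrounds were 65.4% of genes in replicate 1 and 68.5% in replicate 2. The gene without a summit in replicate 2 was msl-1. Windows of neighbouring genes overlap, and 1 summit can count for several genes. Longer genes also have wider windows. In the longest of 5 equal classes of gene length, which holds 3 of the 7, 82.8% of all genes had a pooled summit. In the next class, with 3 more, it was 74.4%, and in the middle class, with roX2, 64.7%.

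**Figure D1:**
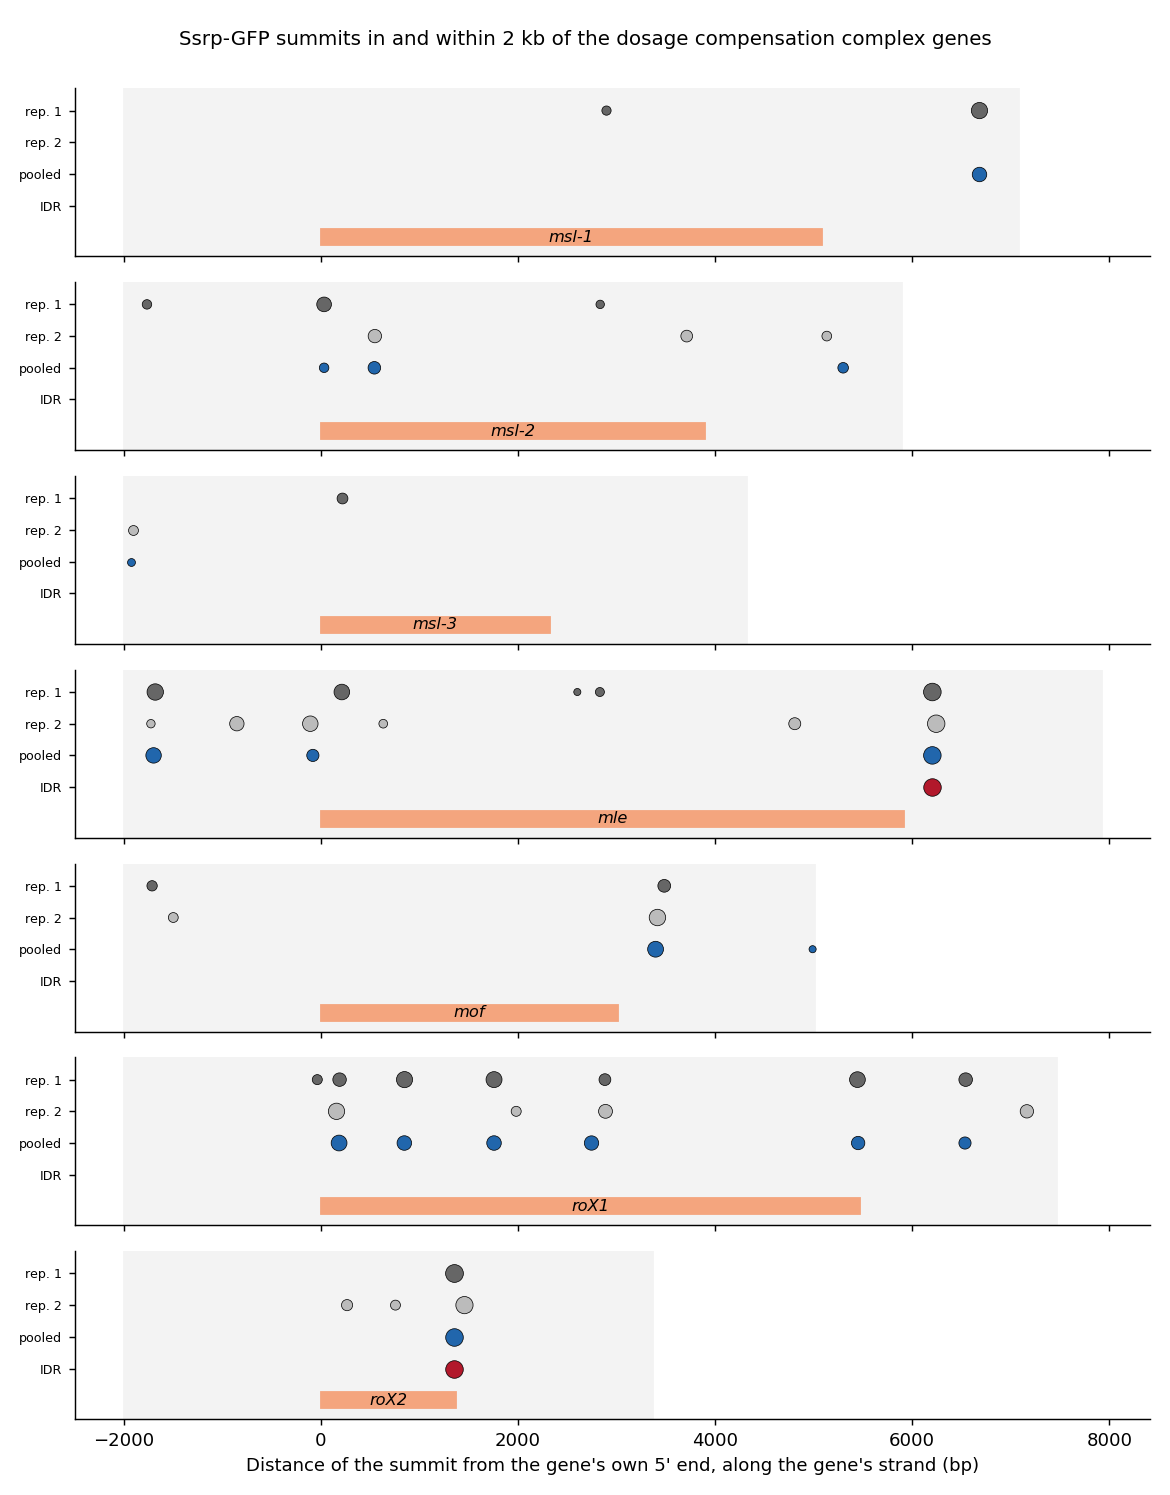
Summits of each list at the 7 genes, plotted by distance in bp from the gene's own 5′ end along its strand. The orange bar is the gene, the grey field the gene with 2 kb on each side, and larger points are higher ranks within their list. The IDR list has 1 summit at mle, past its 3′ end, and 1 at roX2, at its 3′ end.

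roX2 (FBgn0019660, X, 11579065 to 11580432, plus strand) carried the strongest peak of the 7 genes in the IDR, pooled and replicate 1 lists, while in replicate 2 that of mle was stronger. The IDR peak ran from 11580223 to 11580618, with a signal of 262 and rank 3085. Its summit lay in the noncoding exon of roX2, 1356 bp downstream of the TSS and 11 bp before the 3′ end of the gene. The nearest TSS was not that of roX2 but that of nod, a kinesin-like gene needed for chromosome segregation in female meiosis, and the summit lay 351 bp upstream of it. In replicate 1 the matching peak had a signal of 159 and rank 2340, with its summit 13 bp before the 3′ end. In replicate 2 it had a signal of 102 and rank 4365, with its summit 91 bp past the 3′ end and 249 bp upstream of nod. Both replicates thus ranked it among their 5445 strongest peaks. Replicate 2 had further summits 267 and 758 bp downstream of the roX2 TSS, with signals of 25.7 and 23.9 at ranks 21949 and 24537 of 30000.

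The window of roX2 also held 2 exact GAGAGAGA stretches, the GA-repeat core of MSL recognition elements, both inside the gene. They ran from 11580213 to 11580220 and from 11580267 to 11580274, with their centres 205 and 151 bp from the pooled summit on its roX2 side. The nearer stretch lay inside the deposited peak. Of all IDR peaks 2.77% held such a stretch anywhere in the peak, and of the other pooled peaks 2.49%. Of all gene bodies 13.5% held at least 1, and of those within 1.25 times the length of roX2 3.08% did. In the sequence of roX2 printed above the stretches are the longest runs of capitals. The summit itself lay in a part with no capitals.

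roX1 (FBgn0019661, X, 3857230 to 3862697, minus strand) had the most pooled summits of the 7 genes, 6 in a window of 9.47 kb, and none in the IDR list. Of all genes 12.3% had 6 or more pooled summits. Among the 2352 genes whose window was within 1.25 times this length the median was 3, and 20.5% had 6 or more. roX1 has 3 annotated TSSs. The strongest pooled summit lay 186 bp inside the gene from its 5′ end and 86 bp upstream of the nearest TSS, at rank 9143, within the top 30.5% of the list and close to the strongest summit of mof. It was matched in replicate 1 at a signal of 46 and rank 16093 and in replicate 2 at a signal of 58.8 and rank 7460.

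The next 3 pooled summits of roX1 lay 212, 1122 and 2111 bp downstream of the nearest TSS, all in its noncoding exons. Their signals were 79, 78.9 and 77.1, close to each other and to the list median of 72.3. The fifth, with a signal of 68.5, lay 15 bp before the 3′ end, where roX1 overlaps the 3′ UTR of ec, a gene on the opposite strand. The sixth, with a signal of 61.7, lay in a coding exon of ec, 1069 bp past the end of roX1. Only the strongest and the one at 2111 bp among the 6 were matched in both replicates, and the other 4 were matched in replicate 1 alone. The replicates put the strongest summit at different places. In replicate 1 it lay 850 bp inside the gene from its 5′ end, 214 bp downstream of the nearest TSS (signal 67.1, rank 8070). In replicate 2 it lay 160 bp inside the gene, 112 bp upstream of a different TSS (signal 58.8, rank 7460). No exact GAGAGAGA stretch lay in the windows of roX1, mof, msl-2 and msl-3, while those of msl-1 and mle held 1 each, in a coding exon.

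**Figure D2:**
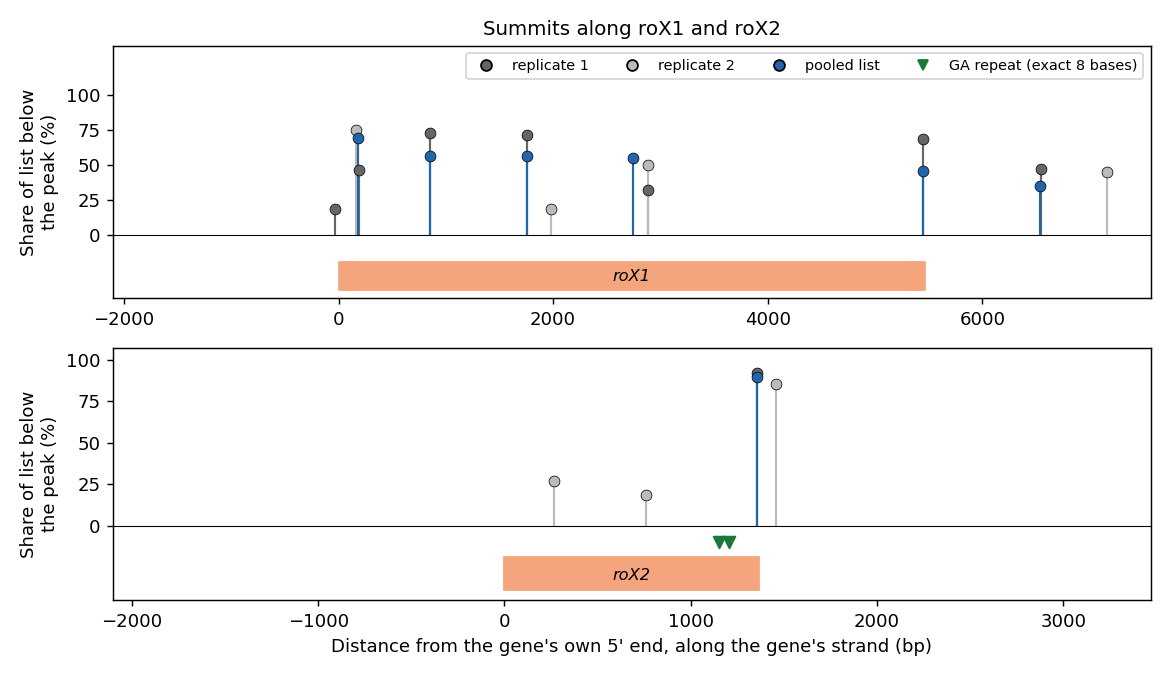
Summits along roX1 (top) and roX2 (bottom) by distance in bp from the gene's own 5′ end, with the height giving the percentage of the list that ranks below the peak. Green triangles are exact GAGAGAGA stretches. roX2 has its highest points at its 3′ end in both replicates, and roX1 has points of middle height along its length.

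mle (FBgn0002774, 2R, 5974857 to 5980778, minus strand) encodes the helicase. Its IDR peak ran from 5974375 to 5974770, with a signal of 247 and rank 3323. The summit lay 284 bp past the 3′ end of mle and 188 bp upstream of the TSS of BubR1, a spindle checkpoint kinase gene transcribed in the same direction. The matching peaks had a signal of 131 and rank 3060 in replicate 1 and a signal of 120 and rank 3609 in replicate 2. In both they were among the 5445 strongest. The nearest mle TSS was 5528 bp away.

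At the other end of mle the pooled list had 2 weaker summits. The stronger one lay in a coding exon of Src42A, a tyrosine kinase gene that neighbours mle, with a signal of 92.7 and rank 10285. The weaker lay 80 bp upstream of an mle TSS, with a signal of 61.8 and rank 19451. Replicate 2 matched the weaker summit at a signal of 44.4 and rank 10129, while replicate 1 had no match under the overlap rule and instead a summit 214 bp downstream of that TSS, with a signal of 60.3 and rank 9741.

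mof (FBgn0014340, X, 5873840 to 5876853, minus strand), the acetyltransferase gene, had no IDR summit. Its strongest pooled summit had a signal of 102 and rank 9042, which is below the lowest signal of the IDR list. It lay 384 bp past the 3′ end of mof and 99 bp upstream of the TSS of GAA1, a gene of the GPI transamidase. Replicate 1 had the matching peak at a signal of 43.3 and rank 18050, and replicate 2 at a signal of 63 and rank 6957. The replicates therefore ranked it far apart. The second pooled summit, with a signal of 47.4 and rank 29490, lay in GAA1 and was matched in neither replicate. No list had a summit inside mof or within 500 bp of its TSS.

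The scaffold and chromodomain genes had the lowest signals when only the strongest pooled peak of each of the 7 genes was compared. In replicate 1 the order differed, with the strongest peaks of msl-1 and msl-2 above that of mof, and that of msl-1 also above that of roX1. msl-1 (FBgn0005617, 2L, 18683720 to 18688800, minus strand) had 1 pooled summit, with a signal of 78.5 and rank 13196. It lay 1603 bp past the 3′ end and 42 bp upstream of the TSS of tos, a nuclease gene. Replicate 1 matched it at a signal of 69.4 and rank 7623, and replicate 2 had no peak anywhere in the window. Replicate 1 also had a summit in a coding exon of msl-1, with a signal of 35.1 and rank 25936.

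msl-2 (FBgn0005616, 2L, 3462218 to 3466112, minus strand) starts 44 bp from ND-PDSW, a complex I subunit gene on the opposite strand. Its strongest pooled summit lay in a coding exon 544 bp downstream of the TSS, with a signal of 63.7 and rank 18510, and was matched only in replicate 2, at a signal of 31.2 and rank 16370. A second, with a signal of 52.4 and rank 25408, lay in the 5′ UTR 34 bp downstream of the TSS and was matched only in replicate 1, at a signal of 52.2 and rank 12671. No msl-2 summit was thus matched in both replicates. The remaining pooled summit lay in CG3246, with a signal of 55.5.

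msl-3 (FBgn0002775, 3L, 7123213 to 7125533, minus strand) had the lowest-ranked strongest summit in the pooled list and in each replicate list, except that msl-1 had none in replicate 2. The only pooled one had a signal of 48.7 and rank 28347 and lay 1921 bp upstream of the TSS, in a coding exon and nearest to the TSS of Acbp4. Replicate 2 matched it at a signal of 23.8 and rank 24675. Replicate 1 had a different summit, in an intron 217 bp downstream of the msl-3 TSS, with a signal of 38.1 and rank 22692. These were low ranks in lists of 30000 peaks.

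**Figure D3:**
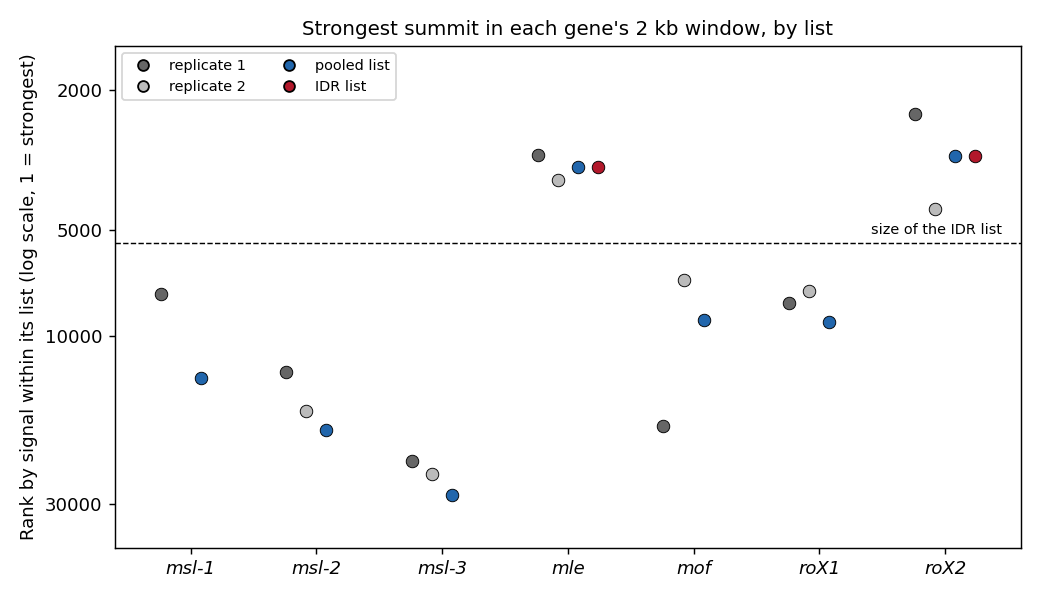
Rank by signal of the strongest summit in the window of each gene, 1 point per list, on a log axis with strong peaks at the top and the size of the IDR list as a dashed line. At mle and roX2 all points lie above the line, and at the other 5 genes none does.

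The strongest pooled summit lay closer to the 3′ end than to any own TSS at 4 of the 7 genes, msl-1, mle, mof and roX2. Among the 11890 genes with a pooled summit in their window this held for 36.5%. The TSS of another gene was nearer than any own one at 5 of the 7, msl-1, msl-3, mle, mof and roX2, against 53.4% of the genes with a pooled summit. For the IDR list it was so at both genes with a summit, against 53.9%. Both counts are small and neither was tested.

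Replicate support at the 7 genes was uneven. Of the 17 pooled peaks, 6 were matched in both replicate lists by an overlap of at least 50% of each peak, 6 in replicate 1 alone, 4 in replicate 2 alone and 1 in neither. Over the whole pooled list 48.8% were matched in both. The IDR peaks of mle and roX2 were matched in both, as were 77.4% of all IDR peaks. Of the 15 pooled peaks outside the IDR list 4 were matched in both (26.7%), against 42.5% of all such peaks. The 4 peaks were those at Src42A beside mle, at GAA1 beside mof and the strongest roX1 summit and the one 2111 bp downstream.

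**Figure D4:**
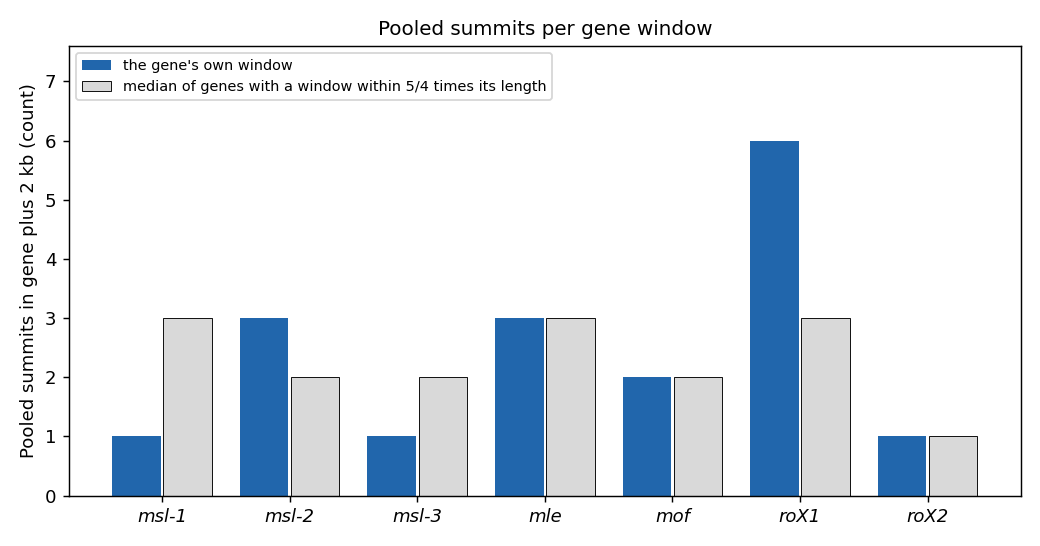
Number of pooled summits in the gene and 2 kb on each side (blue), with the median over all genes whose window is within 1.25 times that length (grey). roX1 has 6 against a median of 3, msl-1 has 1 against 3, and the other 5 differ from their median by at most 1.

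The GC content of the base at each of the 17 pooled summits and the 50 bp on each side averaged 44.3% ± 13.5 (SD over peaks), against 30% ± 7.96 over all IDR summits and 41.4% ± 11.2 over the other pooled summits. It was 33.7% at the roX2 summit, 36.6% at that of mle and 20.8%, the lowest of the 17, at the summit between mof and GAA1. The highest, 64.4%, was at the coding exon of ec beside roX1. Within 150 bp of a summit, GAGAGAGA was found at 0 of the 17 peaks, against 2.33% of IDR summits and 1.78% of the other pooled summits. GAGAG, the core bound by GAGA factor, was found at 5 of the 17, against 30% of IDR summits and 29.4% of the others. TATCGATA, the DNA replication-related element, was found only at the summit beside mof, outside the stretch printed above, against 3.75% and 1.55%, and CAGCTG, an E-box, at 3 of the 17, against 11.9% and 13.7%. Matches were sought on both strands, and every GAGAGAGA also holds GAGAG.

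The MSL complex genes were set beside 14 other genes of dosage compensation. The list holds 6 partners and regulators of the MSL complex and 8 genes of the NSL complex, in which MOF acts at promoters in both sexes, and of proteins found with it. An IDR summit lay in the window of 2 of the 7 MSL complex genes (28.6%), against 9 of these 14 (64.3%) and 32.6% of all genes. Within 500 bp of an own TSS it was 0 of the 7, against 7 of the 14 and 16.3% of all genes. The median gene length was 3895 bp for the MSL complex genes, 5072 bp for the 14 and 1646 bp for all genes, and longer genes have wider windows. In the longest of 5 equal classes of gene length 1 of 3 MSL complex genes had an IDR summit, against 6 of 7 of the other list and 53.2% of all genes. In the next class it was 0 of 3, against 2 of 6 and 37.7%, and in the middle class 1 of 1 (roX2), against 1 of 1 and 30%. The list of 14 was chosen with earlier results of these data known, so it is no independent comparison. The difference between the lists was not tested.

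Of the partners and regulators, 5 of 6 had an IDR summit, against 32.6% of all genes. Their median length was 12251 bp, so most of their windows were wide. In the longest of 5 equal classes of gene length 53.2% of all genes had an IDR summit. JIL-1, a kinase of histone H3 enriched on the male X, had 3, the strongest with a signal of 1423 and rank 193, in the gene 7064 bp from the nearest own TSS. Sxl, the switch gene that keeps msl-2 off in females, had 3, the strongest with a signal of 582, 409 bp downstream of a TSS. Unr, which works with Sxl on msl-2 mRNA, had 2, the strongest with a signal of 269, and how, an RNA-binding protein gene, had 1, with a signal of 431. Top2, topoisomerase II, had 2, the strongest with a signal of 261, 108 bp upstream of its TSS. Clamp, whose zinc finger protein binds GA repeats and recruits the MSL complex, had none.

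Of the NSL and associated genes, with a median length of 4168 bp, 4 of 8 had an IDR summit, against 32.6% of all genes. Chro, a chromodomain gene, stood highest with a signal of 3957 and rank 8. pzg had a signal of 882, with the TSS of CG12974 nearer than its own, and wds, a WD-repeat gene, had 656 past its 3′ end, nearest to egh. Rcd5 had 360, 114 bp upstream of its TSS and nearest to CG11593. nsl1, dgt1, Rcd1 and MBD-R2 had none.

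**Figure D5:**
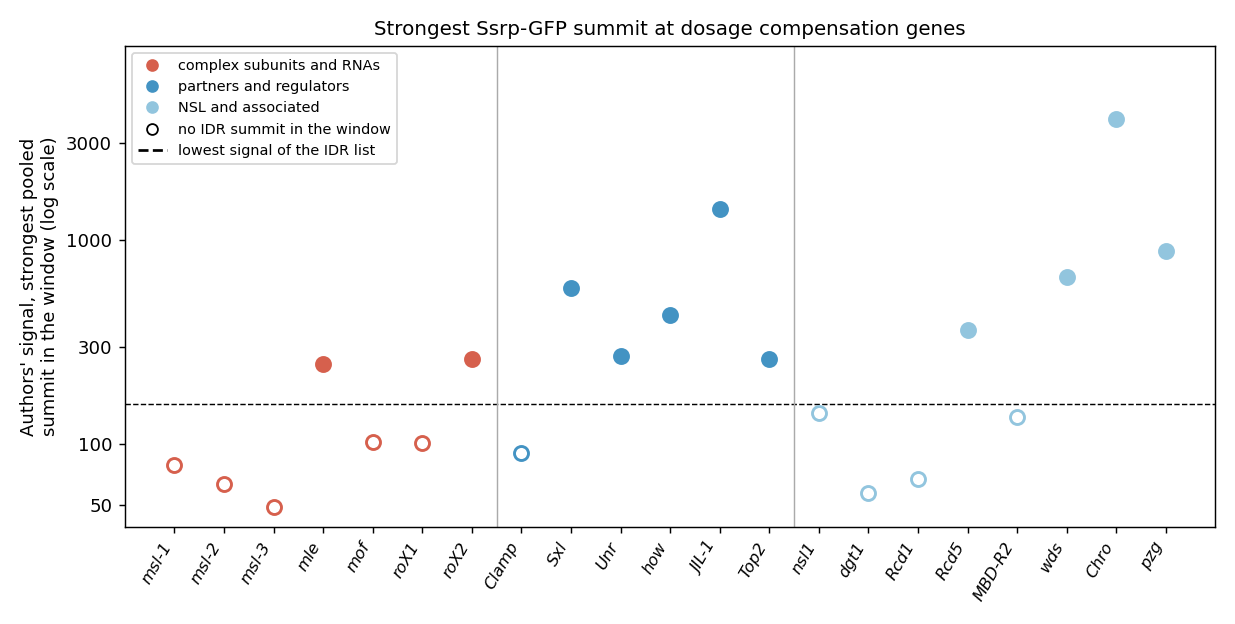
Authors' signal of the strongest pooled summit in the window of each gene, on a log axis, for the 7 genes of the complex (red), 6 partners and regulators (dark blue) and 8 NSL and associated genes (light blue). Filled points have an IDR summit, and the dashed line is the lowest signal in the IDR list, 157.

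The window decided which sites were counted. The closest IDR summit beyond the 2 kb limit lay 2296 bp from roX2, with a signal of 356, 114 bp upstream of the TSS of CG11695. For roX1 the closest lay 5954 bp away, with a signal of 589, 320 bp upstream of a yin TSS. The closest inside were those of roX2, in the gene, and of mle, 284 bp from it. The pooled summit nearest to the limit from inside was that of mof at 1977 bp.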

How the data were processed

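ChIP-seq peak lists of Ssrp-GFP from 2 embryo replicates were used. Per the deposited text, all lists are on dm6. Each replicate list derives from that replicate's alignment and 1 further alignment shared by all lists, the pooled list from both replicates, and the IDR list from the other 3. Not given in the sources used here are aligner, peak caller and IDR threshold. The authors' deposited signal and deposited −log10 q-value of each peak, and its summit, were used as they stand, and the rank was computed from the signal within each list. A deposited p-value column held no values. At mle and roX2 the −log10 q was 3.85, the highest value of the pooled list. They shared this value although they ranked 3323 and 3085 by signal, so it does not place them among the strongest peaks.

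Genes came from Ensembl release 115 without transposable elements (18277 genes on 7 chromosomes), and sequence from RefSeq release 6. A summit counted for a gene when in it or within 2 kb. Windows and overlaps were computed with Python 3.11.15, numpy 2.4.6 and pandas 2.3.3, and the counting was tested on simulated data. Counts were set beside the percentage of all genes, with no test, since there is 1 group. No control library was analysed here. The rule for naming took every IDR peak and the strongest peak per list at each of the 7 genes, and each of the other 14 genes with an IDR summit; the weaker peaks described were chosen after their values were seen. The genes and lists were chosen with earlier results of these data known. Gene roles are background knowledge. Alternatives were the window, the peaks used, each replicate alone, the overlap rule and the motif window. Sequences on 2R were not printed.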

Additional observations from a re-analysis of the deposited data

How the results depend on the processing

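The counts moved with some windows and with the peaks used. With flanks of 500 bp, 1 kb or 5 kb in place of 2 kb, 2 of the 7 genes still had an IDR summit. The shares of all genes were then 23%, 26.1% and 46.5%. With the gene body alone 1 of the 7 genes had an IDR summit and 3 had a pooled one, and 10.3% of all genes had an IDR summit. Within 500 bp of a TSS these were 0, 3 and 16.3%. Among the 2722 strongest IDR peaks 0 of the 7 genes and 20.3% of all genes had a summit, and among the 10890 strongest pooled peaks 4 of the 7 and 46.8% of all genes did. The number of IDR summits at the 7 genes, 2 as reported, was 1 with the gene body alone, 0 at TSSs, 0 among the 2722 strongest and 5 among the 10890 strongest pooled peaks. With flanks of 500 bp or 1 kb it stayed at 2, and with 5 kb it was 3. The 9 of 14 for the other dosage compensation genes stayed within 1.5 times under all 9 alternatives, from 6 to 12. It was 6 with the gene body alone, against 10.3% of all genes. Among the 10890 strongest pooled peaks it was 12, against 46.8%. Of the 17 pooled peaks, 3 were matched in both replicates when 80% of each peak had to overlap, and 2 when only the 5445 strongest peaks of each replicate were used. With any overlap of at least 1 bp 8 were matched in both, and with summits within 100 bp of each other 4 were. GAGAGAGA was found at 1 of the 17 within 250 bp of the summit and at 1 in the whole peak. With either replicate left out, the count of 2 of 7 did not change. The IDR procedure itself was not repeated, since it needs both replicates. In each replicate list mle and roX2 were the only genes of the 7 with a peak among the 5445 strongest. No paired analysis was possible because there is 1 group. Read depth is unknown and the cause of these shifts was not tested.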

Other observations

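The sequences printed for roX2 and roX1 share a stretch of 13 bases, ttagggctgccac, at chrX:11580350-11580362 in roX2 and at chrX:3862454-3862466 in roX1, on the plus strand in both, although the genes are transcribed from opposite strands. Its centre lay 65 bp below the summit coordinate at roX2 and 51 bp below it at roX1. The stretch was found by comparing these sequences after they had been looked at, so its presence in both is no independent finding. It occurs 7 times on the 7 chromosomes. Within 149 bp of a summit it was found at 1 of the 5445 IDR summits and 1 of the 24555 other pooled summits, these being the peaks of roX2 and roX1. What the stretch does was not tested.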
